A study of Mus musculus with 58 samples.

Results

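In the embryonic mouse pancreas, 2 kinds of endocrine cell were compared: cells that hold transcripts of Fev but little of any islet hormone, and cells whose hormone is glucagon. Both were picked by fixed limits on their own transcripts. A Fev-gated cell had at least 2 transcripts of Fev, 0 of Neurog3 and less than 1% of its transcripts from each of insulin (Ins1 plus Ins2), glucagon (Gcg), somatostatin (Sst), pancreatic polypeptide (Ppy) and ghrelin (Ghrl). A glucagon-gated cell had at least 1% of its transcripts from Gcg and at least 3 times as much Gcg as any other of these hormones. The limits held for 503 cells, 319 in the Fev gate and 184 in the glucagon gate, of 2328 retained cells in 4 experiments and 4318 in the whole series.

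The study profiled single cells from pancreases of embryos of mip-gfp females, in which a fragment of the mouse insulin promoter drives green fluorescent protein, by SORT-seq, a method that sorts 1 cell into each well of a 384-well plate and counts transcripts by molecular identifiers. Each experiment had a plate of viable cells, called live here, and a plate sorted for the reporter, called MIP-GFP. No treatment or mutation was applied beyond the reporter, the labels give no strain, and no label says whether embryos of an experiment came from 1 or more litters. The experiments were EP12 at embryonic day E13.5, EP14 at E14.5, and EP10 and EP17 at E15.5, with 30 libraries on 8 plates.

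The Fev gate held 137 cells in EP12, 101 in EP14, 73 in EP10 and 8 in EP17, and the glucagon gate held 46, 54, 58 and 26. Transcripts were summed per experiment and gate where the gate had at least 10 cells, so EP17 gave a glucagon sum but no Fev sum, and the comparison rests on 3 experiments and 6 sums. Most gated cells came from the MIP-GFP plates, 259 of 311 Fev-gated and 147 of 158 glucagon-gated cells in those 3 experiments. Median transcripts per cell were 17530, 22790 and 19600 in the Fev gate and 19970, 26760 and 21840 in the glucagon gate of EP12, EP14 and EP10. In EP17 the medians were lower, 8458 and 7946.

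All endocrine cells of the pancreas pass through a short stage marked by the transcription factor Neurog3. Fev, an ETS-family transcription factor first described in serotonin neurons, comes on as Neurog3 goes off, in cells that have not yet made much hormone. From there cells take one of several fates. Glucagon cells are the alpha cells of the islet, and the transcription factors Pax4, Pdx1 and Nkx6-1 are known for the insulin (beta) side. Glucagon cells are among the first hormone cells of the embryonic pancreas, and a mature alpha cell cleaves proglucagon with the convertase encoded by Pcsk2.

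**Figure D1:**
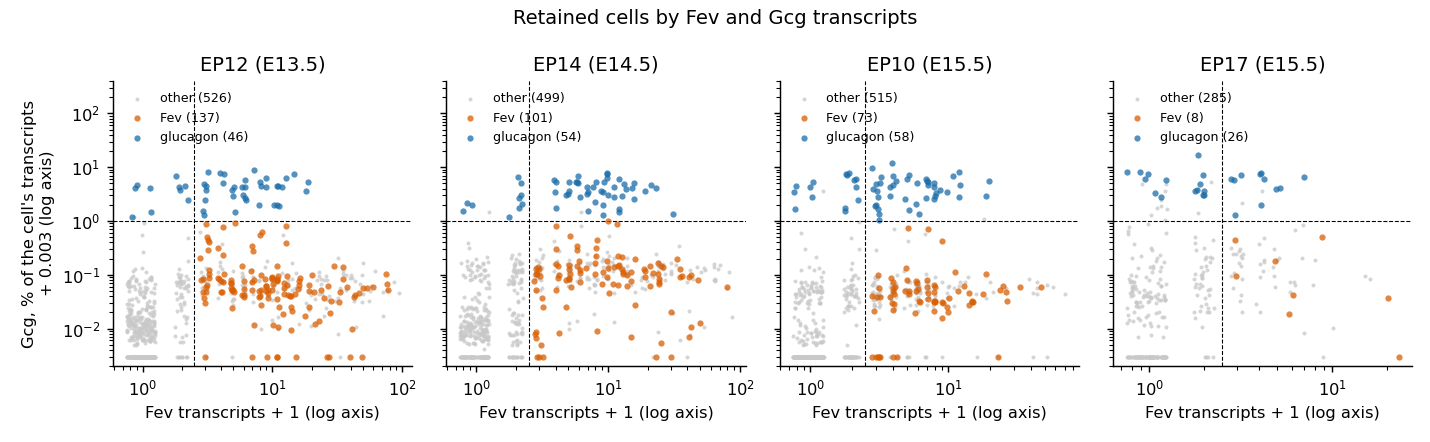
Gcg share of each retained cell in percent (log axis, 0.003 added) against its Fev transcripts plus 1 (log axis), 1 panel per experiment; orange points are Fev-gated, blue points glucagon-gated, grey points all other retained cells, and dashed lines the limits of the gates. Most blue points lie to the right of 0 Fev transcripts: 123 of 158 glucagon-gated cells of EP12, EP14 and EP10 held at least 2.

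Gcg and Fev were used for the choice, so their values describe the cells and were not tested. The median Gcg share was 4.28%, 3.51% and 4.24% in the glucagon gate of EP12, EP14 and EP10 and 5.77% in EP17, against 0.0529%, 0.0969% and 0.0402% in the Fev gate of the 3 fitted experiments. Median Fev was 9.16, 9.16 and 6.07 transcripts in Fev-gated cells and 4.03, 6.58 and 3.02 in glucagon-gated cells. Fev was thus not confined to its own gate: 123 of 158 glucagon-gated cells (77.8%) held at least 2 Fev transcripts, and 33 of 158 (20.9%) held at least 1 of Neurog3. In live-plate wells without endocrine markers the share with at least 2 Fev transcripts was 0.386% of 259 wells in EP12, 2.86% of 210 in EP14 and 2.01% of 199 in EP10, at median depths of 17565, 21490 and 19659 transcripts. On the MIP-GFP plates, which held 147 of the 158 glucagon-gated cells, few such wells were present. There the share was 11.1% of 18 wells in EP12, 0% of 7 in EP14 and 0% of 11 in EP10, with median Fev of 0, 1 and 0 transcripts.

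Both the Gcg and the Fev limit divided a range with cells close to it on either side. The glucagon-gated cell nearest the limit had 1.02% Gcg and the nearest cell outside had 0.982%. There were 31 glucagon-gated cells with 1 to 2% Gcg and 18 cells with 0.5 to 1% that passed the ratio. In the Fev gate 48 cells had exactly 2 Fev transcripts, and 137 wells with 1 Fev transcript met every other limit. Counts stop at a ceiling of 1597 per gene and well, which follows from the number of molecular identifiers, and 35 of 158 glucagon-gated cells reached it for Gcg, so the highest Gcg shares are lower bounds.

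Gcg was also found at a low level in cells of other kinds, and this level went with the plate. On the MIP-GFP plates the median Gcg in the 18, 7 and 11 wells without endocrine markers of EP12, EP14 and EP10 was 6.5, 15 and 6 transcripts. In insulin-gated cells it was 14, 32.5 and 10, and in Fev-gated cells 10, 22.5 and 8. On the live plates of the same experiments Fev-gated cells had medians of 1, 1 and 0. The Gcg of most Fev-gated cells therefore lay in the range of insulin-gated and non-endocrine wells of the same plate. A smaller set lay above it: 31 of 311 Fev-gated cells (9.97%) had Gcg from 0.2% up to the limit of 1%, 16 in EP12, 12 in EP14 and 3 in EP10.

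Some wells in the Fev gate held the markers of another cell type. In 36 of 311 Fev-gated wells (11.6%) markers of immune cells, mesenchyme, acinar cells, duct, endothelium or red cells made up at least 0.5% of transcripts, against 1 of 158 glucagon-gated wells. Immune markers led in 19 of the 36, mesenchyme in 8 and acinar enzymes in 5. Of the 36 wells, 26 had exactly 2 Fev transcripts, 17 were on live plates, and their median of Chga plus Chgb, the granins of endocrine granules, was 3 transcripts against 168 in the other Fev-gated cells. EP14 held 21 of them. The comparison was therefore also made without these wells, on 275 Fev-gated and 157 glucagon-gated cells. That setting was chosen after the data were seen, and its values are called cleaned below.

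Across all genes, 10258 were tested and 1614 differed between the gates (15.7%) at an adjusted p of 0.05 in edgeR's quasi-likelihood test with the experiment as a block, 725 higher in glucagon cells (7.07%) and 889 higher in Fev cells (8.67%). In the cleaned comparison 1823 of 9940 genes differed (18.3%), 889 higher in glucagon cells (8.94%) and 934 higher in Fev cells (9.40%). Of these, 1158 were called in both comparisons with the same sign and 3 with the opposite sign. The values of the 3 experiments did not overlap between gates for 2468 of 10258 genes (24.1%). Differences are given as log2 of glucagon over Fev with the standard error, and levels in CPM, the transcripts of a gene relative to all transcripts of a sum without the 8 gate genes. With the experiment left out of the model 496 genes differed, and DESeq2 with the block called 590. Without EP12 926 genes differed and without EP14 941. The counts of called genes in the lists below stand beside the shares of 7.07% higher and 8.67% lower, and 8.94% and 9.40% when cleaned.

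**Figure D2:**
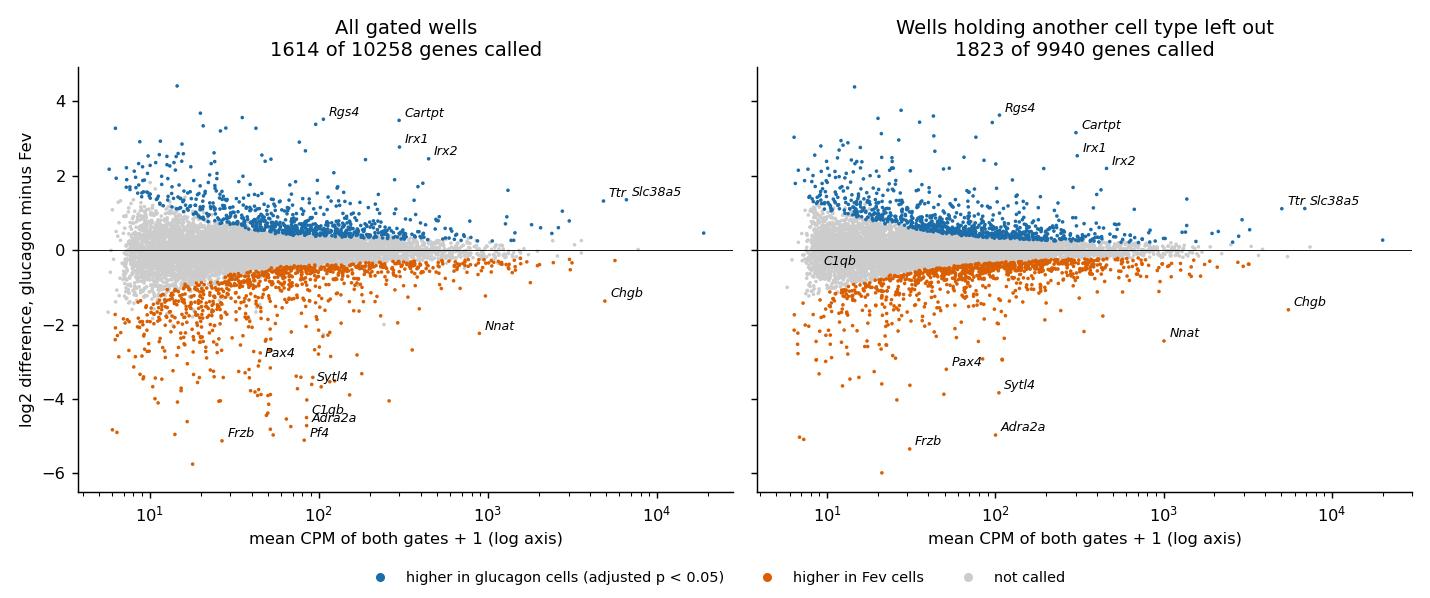
Log2 difference (glucagon minus Fev) of each tested gene against its mean CPM plus 1 (log axis); the left panel uses all gated wells, the right panel leaves out wells with markers of another cell type, and coloured points are genes past an adjusted p of 0.05. Coloured points number 1614 of 10258 on the left and 1823 of 9940 on the right. C1qb, a macrophage gene, moves from −4.50 on the left to −0.49 on the right, and is among the genes that chose the wells left out.

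The clearest difference on the alpha side was in the Iroquois genes Irx1 and Irx2, homeobox transcription factors that lie near each other on chromosome 13 (Irx1 at 13:71957921-71963723 and Irx2 at 13:72628820-72634198, GRCm38) and mark alpha cells among islet cells. Irx1 stood at 100.3, 66.6 and 61.2 CPM in Fev cells of EP12, EP14 and EP10 and at 501, 600 and 465 CPM in glucagon cells, with 412 CPM in the EP17 glucagon sum. Each glucagon sum lay above every Fev sum. The mean was 76.0 ± 21.2 CPM in Fev cells and 522 ± 69.7 CPM in glucagon cells (SD, n = 3 experiments), a log2 difference of 2.77 ± 0.146 with an adjusted p of 2.03e-06 in edgeR, and 2.54 when cleaned. Irx2 stood at 224, 124 and 78.4 CPM in Fev cells and at 741, 804 and 699 CPM in glucagon cells, again without overlap. Its log2 difference was 2.46 ± 0.206 (edgeR adjusted p 4.28e-05).

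Etv1, an ETS factor of endocrine cells on chromosome 12, stood at 218, 178 and 143 CPM in Fev cells and at 652, 495 and 782 CPM in glucagon cells, with a log2 difference of 1.80 ± 0.163 (edgeR adjusted p 6.38e-05). Pou3f4, a POU factor expressed in alpha cells, was low in both (9.12, 11.2 and 22.4 against 22.1, 30.3 and 42.0 CPM, with overlap) and higher in glucagon cells by 1.17. Isl1, a LIM factor of all islet cells, stood at 1268, 1177 and 1166 CPM in Fev cells and at 1748, 1684 and 1618 CPM in glucagon cells, without overlap (0.47, and 0.23 when cleaned).

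Of 19 genes listed as alpha-cell identity 17 were tested, 13 were higher in glucagon cells and 0 were lower, with a median log2 difference of 1.05 against −0.01 over all genes tested. In the cleaned comparison 13 were higher, 1 was lower and the median was 0.95 against 0.00. Ttr, the thyroid hormone carrier transthyretin that alpha cells express strongly, stood at 2968, 2385 and 2729 CPM in Fev cells and at 6841, 5154 and 8885 CPM in glucagon cells. The log2 difference was 1.32 ± 0.104 (edgeR adjusted p 2.69e-05), and the EP17 glucagon sum was higher still at 11930 CPM. Slc38a5, a glutamine transporter, rose by 1.36, Tmem27, a membrane protein of islet cells, by 1.61, and Peg10, an imprinted gene derived from a retrotransposon, by 1.05. Tmem27 stood at 621, 520 and 802 CPM in Fev cells against 2132, 1697 and 2108 CPM in glucagon cells, without overlap.

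**Figure D3:**
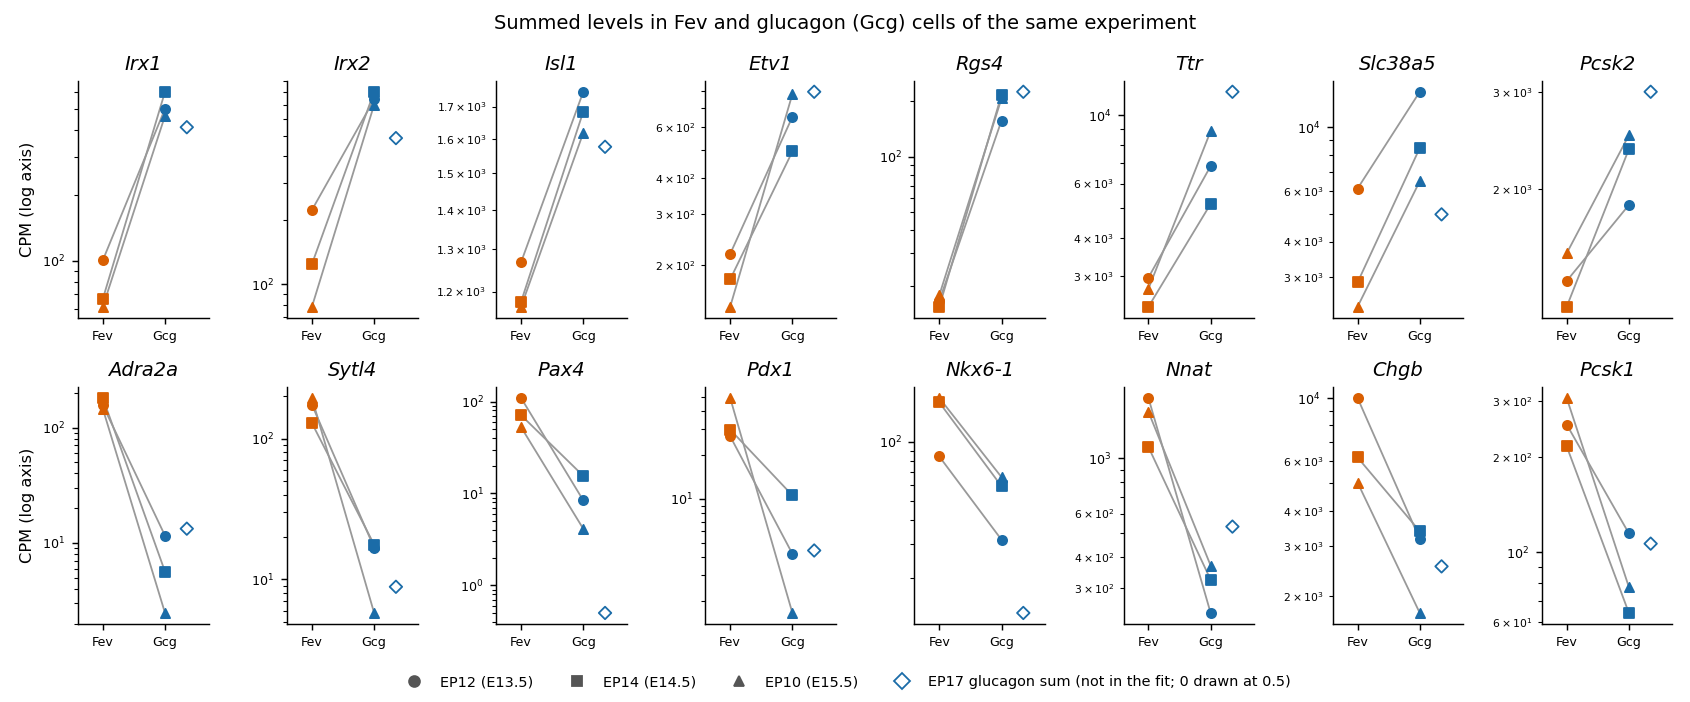
CPM (log axis, 1 scale per gene) of 16 genes in the Fev and glucagon sums, with a line joining the sums of 1 experiment and an open diamond for the EP17 glucagon sum, which has no Fev partner (0 is drawn at 0.5). Lines of Irx1, Irx2 and Rgs4 climb in EP12, EP14 and EP10, and those of Adra2a, Sytl4 and Pax4 drop in all of these.

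Rgs4 and Sytl2 had among the widest gaps. Rgs4, which speeds the shut-off of G proteins below receptors, stood at 16.6, 15.4 and 17.8 CPM in Fev cells and at 158, 217 and 208 CPM in glucagon cells, and at 226 CPM in EP17. Its log2 difference was 3.52 ± 0.147 (edgeR adjusted p 9.75e-07) and 3.63 when cleaned, and it lies at 1:169741477-169747642. A Rgs4 transcript was found in 12.7% of cleaned Fev-gated cells and in 66.9% of cleaned glucagon-gated cells. Sytl2, a synaptotagmin-like protein that ties granules to Rab27, stood at 0.8292, 1.25 and 1.32 CPM in Fev cells and at 24.2, 24.7 and 28.9 CPM in glucagon cells, a log2 difference of 4.42 ± 0.407 (edgeR adjusted p 7.04e-05). Igsf21, an immunoglobulin-family adhesion protein, rose by 2.67, Edn3, the ligand endothelin 3, by 2.44, and Dpp4, the peptidase that clips incretins, by 2.08. None of Rgs4, Sytl2, Igsf21, Edn3 and Dpp4 overlapped between gates.

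On the other side, genes known from beta cells were higher in Fev-gated cells than in glucagon cells. Adra2a, the alpha-2A adrenergic receptor that restrains insulin release (19:54044151-54048982), stood at 156, 180 and 146 CPM in Fev cells and at 11.6, 5.64 and 2.47 CPM in glucagon cells. The log2 difference was −4.72 ± 0.251 (edgeR adjusted p 2.06e-06), and −4.97 when cleaned. Sytl4, also called granuphilin, which docks insulin granules, stood at 174, 129 and 195 CPM against 16.8, 17.6 and 5.77 CPM, a difference of −3.61. Slc2a2, the glucose transporter of beta cells, stood at 56.8, 36.6 and 51.4 CPM against 0, 4.23 and 8.24 CPM, a difference of −3.42. For all of these the lowest Fev sum lay above the highest glucagon sum.

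The transcription factors of the beta side moved with them. Pax4 stood at 110, 71.1 and 52.7 CPM in Fev cells and at 8.40, 15.52 and 4.12 CPM in glucagon cells, and was listed at 0 in the EP17 glucagon sum. Its log2 difference was −2.98 ± 0.266 (edgeR adjusted p 6.17e-05). Pdx1 stood at 26.9, 30.0 and 49.4 CPM against 4.20, 10.6 and 1.65 CPM (−2.61 ± 0.437), and Nkx6-1 at 84.2, 159 and 168 CPM against 31.5, 59.3 and 66.0 CPM (−1.41 ± 0.122). None of these overlapped. Mlxipl, the glucose-responsive factor ChREBP, was even across experiments, at 468, 458 and 460 CPM in Fev cells against 109, 153 and 101 CPM (−1.95).

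Of 27 genes listed as beta-cell identity and secretion 22 were tested, 12 were lower in glucagon cells and 1, the zinc transporter Slc30a8, was higher, with a median of −0.80. Slc30a8, at 0.74, was named after its value was seen. When cleaned 15 were lower, 1 was higher and the median was −0.85. Iapp, the peptide amylin that is co-released with insulin, did not pass the test: it stood at 2706, 2906 and 3810 CPM in Fev cells and at 2251, 4262 and 5488 CPM in glucagon cells. Nnat, neuronatin, an imprinted gene of beta cells that lies within an intron of Blcap, stood at 1753, 1112 and 1542 CPM against 238, 324 and 370 CPM. Its log2 difference was −2.23 ± 0.162 (edgeR adjusted p 1.61e-05).

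**Figure D4:**
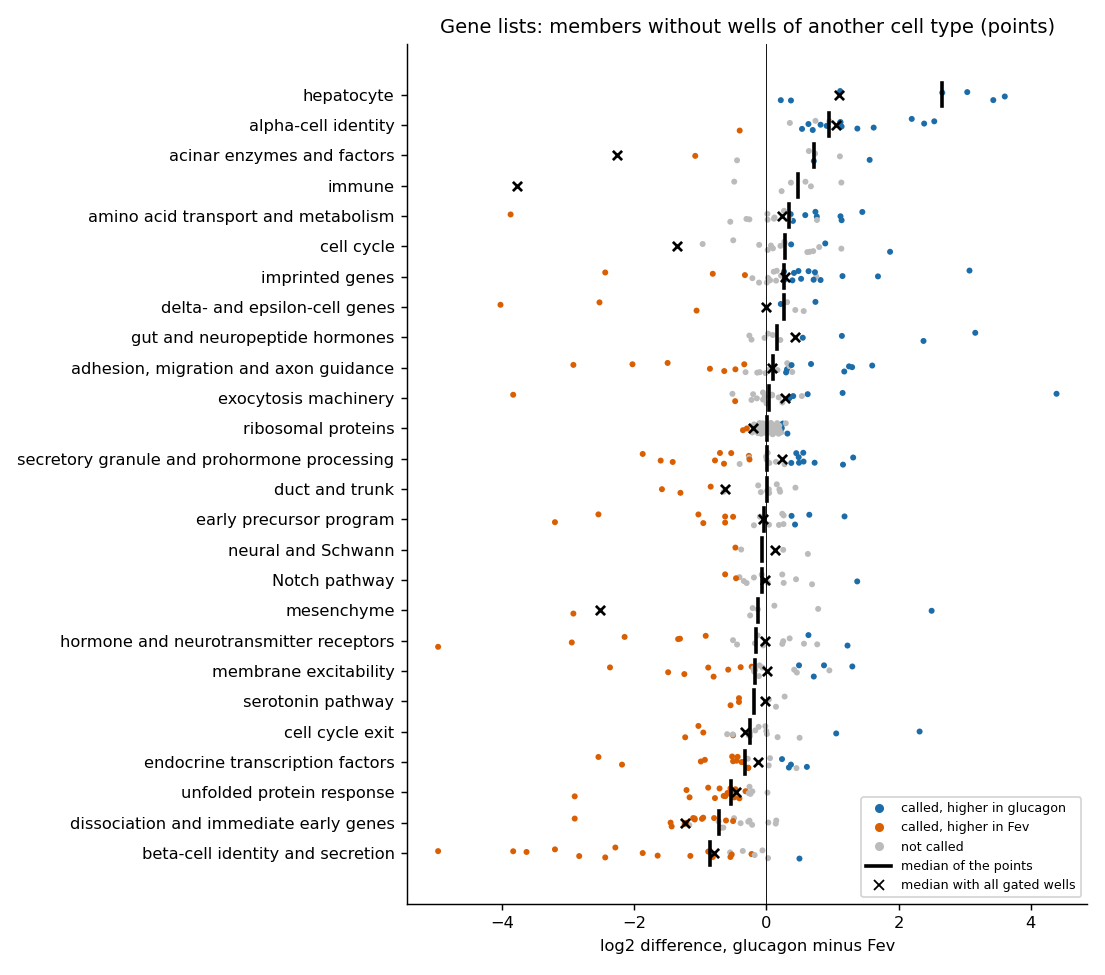
Log2 difference (glucagon minus Fev) of the members of each gene list without wells holding another cell type (points), their median (bar) and the median with all gated wells (cross), for lists with at least 4 tested members. The alpha-cell list has its median at 0.95 and the beta-cell list at −0.85. Crosses of the immune, mesenchyme, acinar and cell cycle lists lie far below their bars, and all of these but the cell cycle list chose the wells left out.

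For 4 genes picked by hand among those that lay apart without overlap, the 250 bases before the annotated start are shown, as RefSeq gives them on GRCm38.p6. Irx2 (chr13:72628570-72628819, plus strand) and Rgs4 (chr1:169747643-169747892, minus strand) were higher in glucagon cells, and Sytl4 (chrX:133981813-133982062, minus strand) and Slc2a2 (chr3:28697653-28697902, plus strand) were higher in Fev cells. Capitals mark the E-box CATCTG or its reverse complement CAGATG, letters that the Neurog3 and Neurod1 family is known to bind, and each sequence runs 5′ to 3′ on the gene's strand.
Irx2: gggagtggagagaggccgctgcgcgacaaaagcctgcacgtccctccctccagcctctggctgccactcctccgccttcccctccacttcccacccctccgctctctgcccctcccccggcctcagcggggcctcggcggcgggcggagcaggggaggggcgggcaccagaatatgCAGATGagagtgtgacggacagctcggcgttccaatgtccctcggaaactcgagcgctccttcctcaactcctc
Rgs4: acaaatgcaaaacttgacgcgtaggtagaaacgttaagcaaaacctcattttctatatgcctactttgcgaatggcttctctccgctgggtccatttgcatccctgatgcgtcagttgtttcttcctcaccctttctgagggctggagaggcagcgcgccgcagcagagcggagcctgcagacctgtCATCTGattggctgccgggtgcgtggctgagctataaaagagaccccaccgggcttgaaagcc
Sytl4: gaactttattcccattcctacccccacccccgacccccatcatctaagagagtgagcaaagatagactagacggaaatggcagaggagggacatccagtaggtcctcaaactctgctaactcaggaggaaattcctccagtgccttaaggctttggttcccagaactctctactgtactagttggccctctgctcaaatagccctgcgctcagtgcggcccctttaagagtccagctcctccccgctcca
Slc2a2: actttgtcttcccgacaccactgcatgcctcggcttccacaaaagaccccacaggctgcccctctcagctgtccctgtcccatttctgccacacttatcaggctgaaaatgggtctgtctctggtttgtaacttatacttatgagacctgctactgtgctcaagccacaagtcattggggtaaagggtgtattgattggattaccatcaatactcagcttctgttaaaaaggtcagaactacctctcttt
The E-box letters were present 1 time each in the Irx2 and Rgs4 windows and 0 times in the others. With 4 genes picked by hand, this does not show a difference between the 2 directions. Among tested genes with a window, 692 of 7791 (8.88%) held them on either strand, against 58 of 530 genes called higher in glucagon cells (10.9%) and 78 of 666 called higher in Fev cells (11.7%), and 3913 of all 27025 windows held them. The homeodomain letters TAATTA were in 2.64% and 2.10% of the windows of called genes, in 2.07% of those of tested genes and in 4.90% of all windows, and the cyclic AMP response letters TGACGTCA in 3.96% and 3.15%, in 3.11% and in 1.62%. The 4 windows held neither of the last 2 motifs, and a match is a string of letters and not a measured binding site.

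The general endocrine transcription factors showed a pattern that depended on the wells left out. Of 20 tested members of the list 4 were higher in glucagon cells and 4 lower, with a median of −0.14. When cleaned, 4 were higher and 12 lower with a median of −0.32. Insm1, a zinc finger factor of endocrine precursors, stood at 738, 570 and 510 CPM in Fev cells and at 548, 534 and 489 CPM in glucagon cells. Its difference was −0.21 (edgeR adjusted p 0.146) and −0.45 when cleaned (edgeR adjusted p 0.000104). Cleaned values that passed the test were also −0.44 for Pax6, −0.51 for Nkx2-2, −0.35 for Neurod1, −0.38 for Rfx6 and −0.28 for Runx1t1, none of which passed with all gated wells. St18, a relative of Myt1, was lower in both comparisons (−0.76 and −0.99).

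Of 18 tested genes of the early precursor list, the program that precedes the hormone stage, 2 were higher in glucagon cells and 6 lower, and 4 and 7 when cleaned. Over all genes tested 7.07% were higher and 8.67% lower, and 8.94% and 9.40% when cleaned. Sox4, a factor needed for endocrine differentiation, stood at 17.4, 37.0 and 71.1 CPM in Fev cells and at 3.15, 4.94 and 10.7 CPM in glucagon cells (−2.75, and −2.54 when cleaned). Hes6, a Notch antagonist, did not pass with all gated wells (−0.50, edgeR adjusted p 0.0745) and passed when cleaned (−0.63, edgeR adjusted p 0.00433). The Notch ligand Dll1 stood at 14.9, 18.3 and 19.8 against 21.0, 11.99 and 21.4 CPM and did not pass. Cdkn1a, the inhibitor p21 that stops the cell cycle, was lower in glucagon cells by 0.92 (242, 188 and 248 against 170, 91.0 and 110 CPM), with no overlap. Hhex, a factor of delta cells outside this list, stood at 17.4, 54.5 and 69.8 CPM in Fev cells and at 6.30, 2.12 and 0.824 CPM in glucagon cells (−4.05). Few cells carried it: 26 of 275 cleaned Fev-gated cells (9.46%) held a Hhex transcript, and 1 cell held 22.5% of these transcripts.

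Within the machinery of hormone granules, the convertases Pcsk2 and Pcsk1 went in opposite directions, and the granins Chgb and Chga were both lower in glucagon cells. Pcsk2, the proglucagon convertase, stood at 1368, 1229 and 1534 CPM in Fev cells and at 1875, 2363 and 2504 CPM in glucagon cells, a log2 difference of 0.69 ± 0.0863 (edgeR adjusted p 0.000524). Pcsk1, the convertase that works with it on proinsulin, stood at 253, 216 and 307 CPM against 114, 64.2 and 77.5 CPM, a difference of −1.64 ± 0.152 (edgeR adjusted p 7.33e-05). The values of neither convertase overlapped. Chgb, chromogranin B, stood at 10010, 6170 and 5030 CPM in Fev cells and at 3175, 3383 and 1740 CPM in glucagon cells (−1.37 ± 0.120), and Chga fell by 0.47 on the log2 scale. Resp18, a granule protein of the endoplasmic reticulum and secretory path, was higher in glucagon cells (95.8, 57.8 and 58.0 against 162, 240 and 223 CPM, 1.56), and so was Vgf by 1.36, with overlap. In the list of granule and processing genes 26 were tested, 11 higher and 7 lower, with a median of 0.23. When cleaned the counts were 9 and 9 and the median 0.01. The shares over all genes tested were 7.07% higher and 8.67% lower, and 8.94% and 9.40% when cleaned.

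Among the exocytosis genes, 6 of 20 tested passed the test, beside 15.7% of all genes tested: 5 were higher in glucagon cells and 1 lower, Sytl4, with a median of 0.28, and when cleaned 5 were higher, 2 lower and the median was 0.04. The synaptotagmin-like proteins Sytl2 and Sytl4 lay at the ends of this list, at 4.42 and −3.61. Rab3d, a small GTPase of secretory granules, stood at 113, 113 and 103 CPM in Fev cells and at 202, 182 and 192 CPM in glucagon cells (0.78).

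Peptide hormones outside the gates were higher in glucagon cells or did not pass the test. Of 10 tested 4 were higher and 0 lower, also when cleaned. Pyy, peptide YY, which early islet cells share with the gut, stood at 1903, 2087 and 2668 CPM in Fev cells and at 3756, 3978 and 3781 CPM in glucagon cells (0.79 ± 0.0877, edgeR adjusted p 0.000239). Cartpt, the neuropeptide CART, stood at 145, 11.2 and 11.9 CPM in Fev cells and at 738, 140 and 737 CPM in glucagon cells. Its difference was 3.49 ± 0.438 (edgeR adjusted p 0.000512), the EP12 Fev sum lay above the EP14 glucagon sum, and single cells weighed heavily: 1 cell held 32.1% of all Cartpt transcripts of the cleaned glucagon gate and 1 cell 35.3% of those of the Fev gate. Sct, secretin, rose by 1.38 and Gal, galanin, by 2.59, both at low levels. Gip, the incretin of K cells, stood at 208, 33.3 and 38.9 against 120, 104 and 45.3 CPM, and Cck at 307, 153 and 83.6 against 307, 211 and 140 CPM, and neither passed. Tph1, which makes the serotonin precursor, was too low to be tested, and of 6 tested serotonin genes 0 were called by edgeR or DESeq2, with 2 and 1 at an unadjusted p under 0.05. When cleaned 3 of 6 were lower in glucagon cells in edgeR's test.

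Receptors and channels split between the gates. Of 18 tested receptors 3 were higher in glucagon cells and 6 lower, and 2 and 6 when cleaned. Beside both lists, 7.07% of all genes tested were higher and 8.67% lower, and 8.94% and 9.40% when cleaned. Calcr, the calcitonin receptor, stood at 8.71, 12.9 and 0.659 CPM in Fev cells and at 131, 86.1 and 9.07 CPM in glucagon cells (3.28, with overlap, since EP14 Fev exceeded EP10 glucagon). Galr1, a galanin receptor, stood at 20.7, 14.98 and 12.51 CPM against 5.25, 4.23 and 3.30 CPM (−1.91), opposite in direction to its ligand Gal. The cannabinoid receptor Cnr1 was low and fell by 2.69. Among 22 tested excitability genes 5 were higher and 6 lower, and 4 and 8 when cleaned. Cacna1h, a T-type calcium channel, stood at 211, 147 and 128 CPM against 29.4, 46.6 and 30.5 CPM (−2.15), and Gria2, a glutamate receptor subunit, at 46.0, 56.2 and 44.1 CPM against 129, 142 and 164 CPM (1.54). The sodium channel Scn9a was lower in glucagon cells (−1.24) and Scn8a higher (1.10).

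Amino acid transport is a known concern of alpha cells, which respond to circulating amino acids. In that list 20 were tested, 7 were higher in glucagon cells and 4 lower, with a median of 0.23, and when cleaned 8 of 19 were higher and 1 lower. Slc38a5 stood at 6114, 2882 and 2372 CPM in Fev cells and at 13270, 8460 and 6485 CPM in glucagon cells, each experiment changing by a like factor while both gates were highest in EP12. EP12 Fev and EP10 glucagon were close, at 6114 and 6485 CPM. Its relative Slc38a1 went the other way, at 103, 87.8 and 85.6 CPM in Fev cells against 4.20, 9.17 and 4.12 CPM (−3.91 ± 0.239, edgeR adjusted p 4.45e-06). Phgdh, the first enzyme of serine synthesis, was lower with all gated wells (−3.26) and too low to be tested when cleaned.

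Genes of the unfolded protein response, which help a cell cope with the folding of secreted proteins, were lower in glucagon cells or did not pass the test. Of 23 tested 14 were lower and 0 higher, with a median of −0.47, and when cleaned 17 were lower with a median of −0.53. Dnajb9, a chaperone partner of BiP, stood at 111, 119 and 113 CPM in Fev cells and at 56.7, 57.2 and 52.8 CPM in glucagon cells (−1.06 ± 0.121, edgeR adjusted p 0.000280), with narrow spread and no overlap. Sdf2l1 fell by 1.27 and Edem1, which sorts misfolded proteins for disposal, by 1.37, or 0.62 when cleaned. Atf3 stood at 5.39, 121 and 113 CPM against 0, 7.76 and 8.24 CPM, so EP12 Fev lay below the glucagon sums of EP14 and EP10.

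Immediate early genes, which also respond to tissue dissociation, were lower in glucagon cells for 20 of 26 tested, with 0 higher and a median of −1.24. When cleaned 14 of 25 were lower and the median was −0.72. Ier2 stood at 61.8, 161 and 217 CPM in Fev cells and at 13.7, 41.6 and 78.3 CPM in glucagon cells (−1.79, and −1.43 when cleaned), with overlap between EP12 Fev and EP10 glucagon. Ier3 passed with all gated wells (−2.45) and not when cleaned (−0.49).

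Some differences of the uncleaned comparison went with the wells of other cell types. Genes of the immune, mesenchyme and acinar lists were among those that chose the wells left out. The fall of their own differences after cleaning follows from that choice and is no separate result. All 9 tested immune genes were lower in glucagon cells, with a median of −3.78, and of 6 tested when cleaned edgeR called 0, with 1 at an unadjusted p under 0.05. C1qb, a complement gene of macrophages, stood at 142, 336 and 1.32 CPM in Fev cells and at 8.40, 13.4 and 0 CPM in glucagon cells. Its difference of −4.50 became −0.49 (edgeR adjusted p 0.490) without those wells. The summed immune list ranged from 30.3 to 3012 CPM in the Fev gate and from 20.6 to 184 CPM in the glucagon gate, and without those wells from 25.9 to 115 and from 20.6 to 160 CPM. Mesenchyme genes had 6 of 9 lower and then 1 of 7, and acinar genes 5 of 9 lower and then 1 of 7, with 1 mesenchyme gene and 2 acinar genes then higher in glucagon cells. Vim, the filament protein vimentin, stayed lower after cleaning (−3.54 and −2.92).

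Differences of proliferation and ribosomal genes, which had no part in choosing the wells, also went with the wells of other cell types. Of 40 tested cell cycle genes 16 were lower in glucagon cells and 0 higher, with a median of −1.36, while of the 17 that could be tested when cleaned 3 were higher and 0 lower. Mcm5, a subunit of the replicative helicase, stood at 30.7, 57.8 and 34.9 CPM in Fev cells and at 6.30, 5.64 and 12.4 CPM in glucagon cells, and its difference of −2.38 became 0.07. Ribosomal protein genes had 29 of 76 lower with a median of −0.20, and when cleaned 3 higher and 2 lower of 75 with a median of 0.01. Rpl7 stayed lower in both (−0.50 and −0.36).

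In the hepatocyte list 6 of 8 tested genes were higher in glucagon cells and 1 lower, and when cleaned 7 of 7 were higher. Ttr and Rbp4, which islet cells also express, and the nuclear receptor Hnf4a (0.55, named after its value was seen) were among the 6. The steroid carrier Serpina6 was the lower one (7.88, 143 and 214 against 1.05, 12.7 and 0.824 CPM, −4.54, with overlap) and was too low to be tested when cleaned. The serpins Serpina1a, Serpina1b and Serpina1d are near-identical copies whose reads cannot be assigned with certainty, so their differences of 2.91, 3.38 and 3.57 are not separate results. Afp, alpha-fetoprotein, rested on single cells, with 1 cell holding 72.5% of its transcripts in the cleaned glucagon gate. Fbp1, the gluconeogenic enzyme fructose bisphosphatase, stood at 29.9, 9.57 and 8.56 CPM in Fev cells and at 74.6, 102 and 82.4 CPM in glucagon cells (2.45), without overlap.

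Imprinted genes, of which only the copy from 1 parent is active, were often higher in glucagon cells: 13 of 26 tested, with 5 lower and a median of 0.29. When cleaned 13 were higher and 3 lower. Among all genes tested 7.07% were higher and 8.67% lower, and 8.94% and 9.40% when cleaned. Peg10 stood at 1609, 1881 and 1832 CPM in Fev cells and at 3075, 4146 and 3992 CPM in glucagon cells (1.05 ± 0.0670, edgeR adjusted p 6.13e-06), and Asb4, a ubiquitin ligase subunit, at 182, 117 and 59.3 CPM against 592, 481 and 246 CPM (1.90). Nnat was the largest change downward in this list. Peg10, Asb4 and Calcr lie on 1 stretch of chromosome 6 (6:3685680-5433022, GRCm38), which was looked at after these values were seen. Its ends were set by Calcr and Asb4, and it was chosen for the imprinted-list genes Calcr, Sgce, Peg10, Ppp1r9a and Asb4. The stretch holds 14 protein-coding genes, of which 11 were tested. Calcr, Sgce, Peg10, Ppp1r9a, Pon3 and Asb4 were higher in glucagon cells, by 3.28, 0.55, 1.05, 0.62, 0.76 and 1.90. Of these only Pon3 had no part in choosing the stretch, so their number is no separate result. The paraoxonase gene Pon2 was lower by −1.24, and Bet1, Casd1, Gng11 and Col1a2 were not called. When cleaned the collagen gene Col1a2 passed, with a difference of 2.499 (edgeR adjusted p 2.51e-09).

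Cell surface genes changed in both directions, with 4 of 26 tested adhesion and guidance genes higher and 7 lower, and 8 of 24 higher and 7 lower when cleaned. All genes tested had 7.07% higher and 8.67% lower, and 8.94% and 9.40% when cleaned. Epha7, a receptor for ephrins, stood at 30.7, 37.9 and 35.6 CPM in Fev cells and at 73.5, 116 and 113 CPM in glucagon cells (1.51). Robo1, a receptor for Slit, stood at 23.2, 20.4 and 13.8 against 7.35, 3.53 and 4.95 CPM (−1.90). Neither overlapped. Frzb, a secreted Wnt antagonist on chromosome 2, had the lowest difference among called genes with a mean of at least 50 CPM in 1 gate, at 32.3, 43.7 and 74.4 CPM in Fev cells against 1.05, 2.12 and 0.824 CPM in glucagon cells (−5.12 ± 0.367, edgeR adjusted p 1.57e-05).

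Sums hide how the transcripts are spread over cells, so the share of cells with a transcript was counted after thinning each cell to 2000 transcripts. No gated cell was left out. Irx1 was found in 13.1%, 8.91% and 8.22% of Fev-gated cells of EP12, EP14 and EP10 and in 47.8%, 55.6% and 62.1% of glucagon-gated cells. Without thinning the shares were 42.3%, 35.6% and 30.1% against 97.8%, 98.1% and 96.6%. Pax4 was in 16.8%, 8.91% and 10.96% of Fev-gated cells and in 2.17%, 3.70% and 0% of glucagon-gated cells.

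Cleaned Fev-gated cells were also divided by whether they held at least 2 transcripts of Irx1 plus Irx2 and at least 2 of Adra2a, Sytl4, Pdx1 and Nkx6-1 together, a division chosen after the values were seen and made at full depth. Of 275 Fev-gated cells 146 (53.1%) held only the second set, 54 (19.6%) only the Iroquois genes, 63 (22.9%) both and 12 (4.36%) neither. Of 157 glucagon-gated cells 96 (61.1%) held only the Iroquois genes, 60 (38.2%) both, 0 only the second set and 1 neither. The Fev share with only the second set was 45.3% in EP12, 52.5% in EP14 and 68.7% in EP10. The Fev gate was thus mixed for these genes, and a sum over it averages cells with either set.

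Fev-gated cells with more Gcg differed from those with less in several of these genes. Cleaned cells were divided into Fev-gated cells under 0.2% Gcg, Fev-gated cells from 0.2 to 1%, glucagon-gated cells from 1 to 5% and glucagon-gated cells of 5% or more, and EP10 had too few cells for the second class. Since Gcg defines the classes, the values are a description. Irx1 stood at 75.2, 313, 501 and 503 CPM over the 4 classes in EP12 and at 54.1, 236, 593 and 623 CPM in EP14, so Fev-gated cells with some Gcg lay between the others. Adra2a stood at 192, 38.3, 11.6 and 11.6 CPM in EP12 and at 252, 137, 6.74 and 2.66 CPM in EP14. Pax4 went in the same order in these experiments, from 135 to 19.2, 10.3 and 0 CPM in EP12 and from 106 to 25.5, 18.3 and 7.99 CPM in EP14. In EP10 the 3 classes with enough cells had 77.3, 425 and 535 CPM of Irx1, 174, 3.89 and 0 CPM of Adra2a and 64.6, 3.89 and 4.54 CPM of Pax4, so most of the distance lay between the gates. Within the glucagon gate Irx1 and Adra2a were near equal in both classes of EP12. Pcsk1 differed from these: it stood at 271 and 297 CPM in the Fev classes of EP12 and at 119 and 92.5 CPM in the glucagon classes, and at 277 and 293 against 69.3 and 50.6 CPM in EP14.

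**Figure D5:**
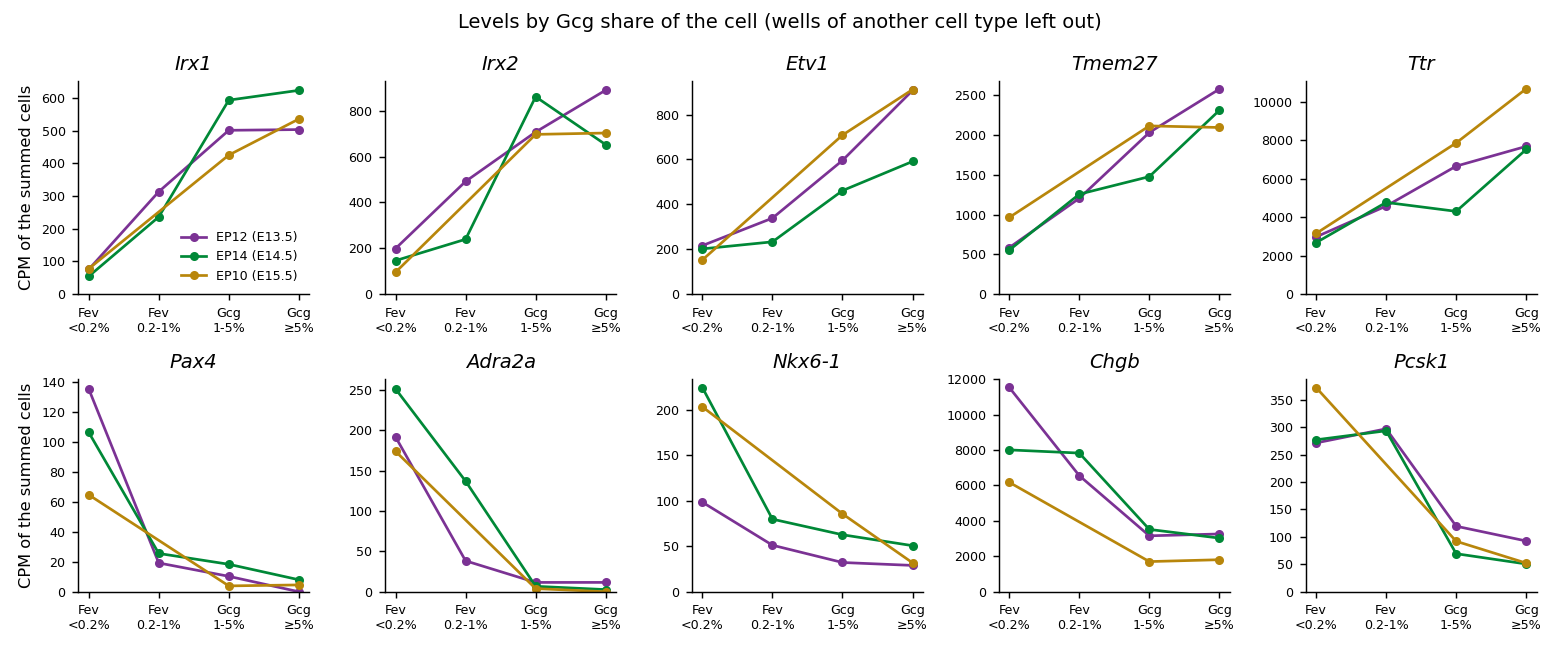
CPM (linear axis) of 10 genes over cells ordered by Gcg share (Fev-gated under 0.2%, Fev-gated 0.2 to 1%, glucagon-gated 1 to 5%, glucagon-gated 5% or more), with 1 line per experiment, without wells holding another cell type. Irx1 and Irx2 are already raised and Pax4 lowered in the second class, while Pcsk1 is lowered from the third class on; the second class has 16 cells in EP12, 12 in EP14 and no point in EP10.

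Glucagon-gated cells were also divided by their Fev transcripts, 0 to 3 against 4 or more, with 20 and 26 cells in EP12, 13 and 40 in EP14 and 33 and 25 in EP10. Irx1 stood at 472 and 522 CPM in EP12, 576 and 606 CPM in EP14 and 463 and 467 CPM in EP10. Other genes differed more between these classes, and the ones given here were chosen after their values were seen. Insm1 was higher in cells with more Fev, at 482 and 595 CPM in EP12, 371 and 572 CPM in EP14 and 334 and 646 CPM in EP10. Pyy was lower in them, at 4280 and 3389, 7671 and 3162, and 4381 and 3172 CPM. Chgb stood at 2762 and 3464, 2652 and 3552, and 1637 and 1846 CPM. Insm1 and Chgb were thus higher, and Pyy lower, with more Fev in 3 of 3 experiments, and no test was made.

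Insulin-gated cells and Neurog3-gated cells of the same experiments place these levels in a wider range. The insulin gate had the glucagon gate's limits with Ins1 plus Ins2 in place of Gcg, and a Neurog3-gated cell had at least 2 Neurog3, 0 Fev and every hormone under 1%. Irx1 had means of 6.16 ± 6.76, 76.0 ± 21.2, 522 ± 69.7 and 13.4 ± 5.22 CPM in Neurog3, Fev, glucagon and insulin sums (SD, n = 3 experiments each). Fev-gated cells thus lay between glucagon cells and the other gates. Adra2a had means of 20.5 ± 6.37, 161 ± 17.9, 6.56 ± 4.61 and 462 ± 68.0 CPM in the same order. Its Fev level stood above that of Neurog3 and glucagon cells and below that of insulin cells. Chgb peaked in Fev cells, with means of 301, 7069, 2766 and 3797 CPM, and Pax4 was highest in Neurog3 cells, with means of 272, 77.8, 9.35 and 36.8 CPM.

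In a fit over Fev, glucagon and insulin sums, 3322 of 10665 genes differed between glucagon and insulin cells (31.1%), 1627 higher and 1695 lower in glucagon cells. This comparison shares the glucagon sums of EP12, EP14 and EP10 with the one above and also holds the glucagon and insulin sums of EP17. It thus rests on 4 experiments where the Fev and glucagon comparison rests on 3, and the values are set side by side only. The log2 difference of glucagon from insulin cells was 5.04 for Irx1 and 4.41 for Irx2. It was −6.19 for Adra2a, −5.15 for Nnat, −2.50 for Nkx6-1 and −2.05 for Pax4. For Hhex it was 0.78 with an adjusted p of 0.592 in edgeR, where the distance from Fev cells was −4.05.

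Whether the difference between gates changed with stage was tested as a slope per day over E13.5, E14.5 and E15.5. Each stage is 1 experiment here, so stage and experiment cannot be told apart, and the fit leaves 1 residual degree of freedom. The slope passed for 116 of 10258 genes (1.13%), upward for 0.663% and downward for 0.468%. When cleaned it passed for 51 of 9940 (0.513%), upward for 0.382% and downward for 0.131%. For Irx2 the glucagon level lay between 699 and 804 CPM at each stage and the Fev level went from 224 to 78.4 CPM, a slope of 0.73 (edgeR adjusted p 1.49e-08), and 0.65 when cleaned. Nnat had a slope of 0.40. Without the block 0 slopes passed, with 319 at an unadjusted p under 0.05, and DESeq2 called 7.

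Glucagon cells had slightly fewer genes detected at equal depth. At 2000 transcripts per cell the median was 1375, 1382, 1365 and 1290 genes in Fev-gated cells of EP12, EP14, EP10 and EP17 and 1352, 1358, 1326 and 1246 in glucagon-gated cells. The glucagon median was lower in 4 of 4 experiments. Gcg itself takes part of each glucagon cell's transcripts, and its part in this difference was not tested.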

How the data were processed

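Single cells of embryonic mouse pancreas were sorted into 384-well plates, and 75 bp paired-end reads were made on a NextSeq500, per the labels' protocols. The deposited table holds estimated counts of transcripts per gene and well (expected counts), which are molecular identifier counts corrected for collisions by the authors and not scaled for depth. Per the submitters' processing notes, BWA, Seurat and the mm10 build were used, with versions and settings not given in the sources used here. Whether the counting used strand is likewise not given there.

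Wells were assigned to experiment and sort by their column names, and 1536 columns that match no listed sample were not used. Wells with at least 2000 transcripts besides spike-ins and at least 500 genes were kept, and 0 pairs of wells had identical counts. The gates were applied per cell, estimated counts were rounded, and cells of a gate were summed per experiment (at least 10 cells). The 8 gate genes (Fev, Neurog3, Gcg, Ins1, Ins2, Sst, Ppy and Ghrl) were left out of the sums, which then held 951900 to 2411981 transcripts. No doublet caller was run on the sorted wells. An alternative left out wells above 5 times the median of their plate.

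Genes were filtered with filterByExpr and tested with edgeR 4.0.16 in R 4.3.3 (TMM factors, quasi-likelihood test, Benjamini-Hochberg adjusted p of 0.05), with the experiment as a block. Deviations of the 2 sums of an experiment from the gate means correlated at 0.361 in EP12, 0.263 in EP14 and 0.392 in EP10. DESeq2 1.42.0 was an alternative. P-values measure how much the difference between the gates varies over the experiments, since the block takes out the level of each experiment. No source says that the experiments came from separate litters. On simulated data with the design of the Fev and glucagon comparison (10096 genes), 75 of 97 genes changed 2-fold and 99 of 99 changed 4-fold were called, with 14 unchanged genes called.

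The members and lists were chosen with earlier results of these data known. Named genes are a fixed panel of 38 genes, the 15 called genes of highest and the 15 of lowest difference that have the same sign in each experiment and a mean of at least 50 CPM in 1 gate (also for the cleaned comparison), up to 4 called members of each of 28 lists, and 3 genes of steepest slope. Genes named outside these rules were chosen after their values were seen. Some genes of the panel and lists are counted in the list totals but not reported here by name.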

Additional observations from a re-analysis of the deposited data

Results flagged for a closer look

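In the 4 glucagon-gated sums, 4 of the 38 panel genes had 1 sum far from the others by Dixon's test, which flags about 1 in 20 groups by chance. Rfx6, a factor of endocrine precursors, stood at 241.6 CPM in EP12 and between 168 and 172 CPM in the other sums. Pyy stood at 9875 CPM in EP17 and between 3756 and 3978 CPM in the others. Tph1 stood at 0.824 CPM in EP10 and was listed at 0 in the others, which is 1 transcript. Top2a, a marker of dividing cells, stood at 42.9 CPM in EP10 and between 4.20 and 4.94 CPM in the others, and 1 cell held 66.7% of its transcripts.

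The glucagon minus Fev difference changed most per day of stage for E2f8 (6.30), Shcbp1 (5.72) and Hk2 (−4.61), each past an adjusted p of 0.05 in edgeR's test of the slope. In the cleaned sums 1 cell held 91.7%, 84.6% and 75.0% of their transcripts in the glucagon gate, and none of E2f8, Shcbp1 and Hk2 was high enough there to be tested.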

How the results depend on the processing

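Of 133 tested genes of the naming rules 118 were called, 56 of these kept their call in each setting in which they were tested (9 to 18 of 18 settings), 62 lost it in at least 1 and 7 changed sign in at least 1. Irx1, Irx2, Etv1, Ttr, Tmem27, Peg10, Rgs4, Pax4, Pdx1, Nkx6-1, Adra2a, Sytl4, Slc2a2, Nnat, Chgb, Pcsk1 and Frzb were among the 56, tested in 16 to 18 settings.

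The count of 1614 genes became 496 without the replicate block (223 higher and 273 lower in glucagon cells), 590 with DESeq2, 2577 without the filter on low counts, 210 with each cell thinned to 2000 transcripts (3225 genes tested), 911 with a glucagon gate of 5% and 1013 with EP11. EP11 is a further experiment outside the comparison, taken here at a stage before E13.5, and its titles and stage labels disagree on the stage. It held 27 Fev-gated and 262 glucagon-gated cells. Leaving out 1 experiment gave 926 to 1696 genes, with the lowest counts without EP12 (926) and EP14 (941). The cause of these changes was not tested. Thinning left fewer transcripts and leaving out an experiment left fewer sums, and without EP10 the count was 1696. The glucagon minus insulin count of 3322 became 1997 without the block and 2436 to 2989 without 1 experiment. The 116 stage slopes became 0 without the block, 7 with DESeq2, 6 on MIP-GFP plates, 47 with the EP17 sum of 8 Fev cells, 41 with EP11 and 51 without wells holding another cell type. The slope without EP10 has no residual degree of freedom and was not run, and leaving out EP17 leaves the Fev and glucagon fit as it is. At 4000 transcripts per cell the median genes were 2281, 2304, 2267 and 2169 in Fev cells of EP12, EP14, EP10 and EP17 and 2249, 2282, 2232 and 2061 in glucagon cells.

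Differences that changed sign are given as log2 of glucagon over Fev. Without wells holding another cell type they were Gip −0.0290, Rps15a 0.0047, Cdkn1c 0.0060, Mcm5 0.0677, Mest 0.15, Mrc1 0.23, Dll1 0.24, Hmox1 0.28 and Pnliprp1 1.11. On MIP-GFP plates they were Dll1 0.13, Cdkn1c 0.16, Ctrb1 0.23 and Pnliprp1 1.36, and with at least 4 Fev transcripts Dll1 0.0427, Cdkn1c 0.0610 and Pnliprp1 1.20. With a glucagon gate of 5% they were Ddc 0.0470, Neurod1 0.0818, Runx1t1 0.13 and Rfx6 0.22, and with hormones under 0.2% Dll1 0.24. Without the block they were Gip −0.10 and Dll1 0.0158, with the wells kept by the authors Mrc1 0.0722, Dll1 0.0846 and Hmox1 0.25, with EP11 Iapp −0.12 and Gip −0.86, and with the EP17 sum Dll1 0.0012. Leaving out 1 experiment in turn gave Neurod1 −0.30 to 0.0024, Runx1t1 −0.23 to 0.11, Dll1 −0.24 to 0.29 and Gip −0.43 to 1.04, with the positive values of Neurod1, Runx1t1 and the highest of Gip without EP12, and the highest Dll1 and lowest Gip without EP14.

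Depth limits the low genes: a glucagon sum of about 951900 transcripts holds about 1 transcript per unit of CPM, so differences of genes such as Frzb, Sytl2 and Pdx1 rest on few transcripts in 1 gate.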
